A study of Mus musculus with 12 samples.

Results

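RNA libraries labelled blood were compared with libraries labelled spleen among those in which red cell RNA took a large part of the counts. The rule took every library whose adult globin genes Hba-a1, Hba-a2, Hbb-bs and Hbb-bt together held over 25% of all counts, which was true of 6 of the 12 libraries in the series. The same 6 were found with a threshold of 10% or 40%, since the lowest of them had 48.9% globin and the highest of the other 6 had 5.89%. The libraries were thus chosen by their globin counts, which were then left out of every value. The 3 libraries labelled blood were WT 01, KO 02 and KO 03, and the 3 labelled spleen were WT 02, WT 04 and KO 03. Values of single libraries are given in that order throughout.

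The mice were C57/Bl6 animals of 8 months. WT mice were wild type, and NM1 KO mice lacked nuclear myosin 1, a nuclear form of the motor protein encoded by Myo1c. Per the labels, blood was drawn from the submandibular vein into RNAzol, and spleen RNA came from a tip piece of about 5 mm3. Libraries were prepared with a NEBNext Ultra II kit from 500 ng of total RNA. The labels do not say whether libraries came from separate mice, so p-values measure the spread between libraries, which may be technical. Genotype was not balanced between the labels, with 1 WT and 2 KO libraries labelled blood and 2 WT and 1 KO labelled spleen. Whether the number 03 marks 1 mouse in both tissues is not stated.

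Whole blood RNA comes from reticulocytes, which still hold messenger RNA after losing their nucleus, from platelets, and from white cells. Platelets are shed by megakaryocytes and carry over part of their messenger RNA. They stick to damaged vessel walls through the glycoprotein Ib complex and the integrin αIIbβ3, release granules filled with Pf4, Ppbp and other proteins, and answer to ADP, thrombin and thromboxane. In the mouse the spleen also stores platelets, clears old red cells through its red pulp macrophages and makes blood cells.

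The 6 libraries held 9.32 to 12.1 M counts (M, 10 to the power of 6), of which 4.09 to 5.83 M were left without globin, where the other 6 held 21.8 to 27.4 M. A count of 0 allows a level of up to 0.515 to 0.733 CPM (counts per M counts, here of the counts without globin), and this limit covers counting error only. Globin took 48.9% to 52.1% of counts under the blood label and 54.8% to 56.1% under the spleen label. Both libraries numbered KO 03 differed from the other 4. They had counts for 15729 genes (blood KO 03) and 16579 genes (spleen KO 03), where the other 4 had 21982 to 26651. Olfactory receptor genes, which blood cells hardly use, summed to 7.51 and 6.95 CPM in the KO 03 libraries and to 93.6 to 132 CPM in the other 4. In the 6 globin-poor libraries that sum was 4.54 to 9.98 CPM, so the KO 03 libraries lay within their range and the other 4 lay above it. Results below are also given without the KO 03 libraries, a choice made after seeing the data that keeps the 4 libraries with the high olfactory receptor sums.

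The libraries labelled spleen did not carry the markers of splenic tissue. Vcam1, an adhesion protein of red pulp macrophages and stroma, had 16 counts in all under the blood label and 9 under the spleen label, against 20066 and 25613 under the same labels in the globin-poor libraries. Spic, the transcription factor of red pulp macrophages, had 25 and 7 counts, against 3460 and 4158, and Cd5l, a secreted protein of the same macrophages, 14 and 28, against 4004 and 4222. Of 30 genes of splenic endothelium, stroma and matrix, 8 passed the filter on low counts, and the sum of all 30 was 15.4 to 51.6 CPM under the spleen label, 14.3 to 60.5 CPM in those labelled blood and 2062 to 3329 CPM in globin-poor libraries labelled spleen. The chemokine genes Ccl19 and Cxcl13 had 0 counts in all 6 globin-rich libraries. The 18 red pulp macrophage genes summed to 176 to 532 CPM in libraries labelled spleen and 225 to 293 CPM in those labelled blood, below the 2901 to 4715 CPM of globin-poor libraries labelled spleen. Globin-poor libraries labelled blood carried the splenic markers too, with 2627 to 3612 CPM for the red pulp macrophage genes and 1653 to 2154 CPM for the endothelium, stroma and matrix genes. Both kinds of library thus hold 3 libraries whose markers go against their label, and whether labels were exchanged was not tested. Blood and spleen are therefore used here only as the labels the libraries carry.

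Myo1c (chromosome 11, 75650504 to 75673910 of GRCm38), whose nuclear form the KO mice lack, was checked in every library. With TMM scaling (trimmed mean of M-values) it stood at 151, 165 and 170.4 CPM under the blood label and 79.4, 87.8 and 102 CPM under the spleen label. All 3 libraries labelled blood, 2 of them KO, lay above all 3 labelled spleen, 2 of them WT. The difference was log2 -0.85 ± 0.17, edgeR adjusted p = 0.0889, where log2 here and below is the spleen label over the blood label ± SE with 3 libraries a side. Myo1c was called without both KO 03 libraries (log2 -0.93 ± 0.16, edgeR adjusted p = 0.00179). Without scaling, the globin-poor libraries held 163, 219 and 149.7 CPM under the blood label (WT 03, WT 04, KO 04) and 179.8, 134 and 169.7 CPM under the spleen label (WT 01, KO 01, KO 04). The counts are per gene and do not separate the nuclear form from the other forms of Myo1c, so they check the genotype labels only in part.

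Of 11847 genes tested between the labels, 1 was called at an adjusted p under 0.05 by edgeR's quasi-likelihood test (0.00844% of genes), while 1583 had an unadjusted p under 0.05. The called gene was the ubiquitin-like gene model Gm8797 (log2 3.78 ± 0.31, edgeR adjusted p = 0.0085), described further below. Its log2 was 3.46 to 4.01 with single libraries left out, and it was no longer called without blood WT 01, blood KO 02, blood KO 03 or spleen WT 04 (edgeR adjusted p = 0.137, 0.226, 0.0693 and 0.0887) or with the replicate number as a block (edgeR adjusted p = 0.434). A looser description is whether all 3 libraries of a label lay on 1 side of the other 3. This held for 1134 genes higher under the spleen label (9.57%) and for 1245 higher under the blood label (10.5%). DESeq2 called 841 genes, 513 of them higher under the spleen label (4.33%), and limma-voom 45. With scaling by library size the shares without overlap were 3.79% higher under the spleen label and 7.7% higher under the blood label. Without both KO 03 libraries, edgeR called 1336 of 12477 genes, of which 1056 were higher under the spleen label (8.46%) and 280 were higher under the blood label (2.24%). That smaller comparison set blood WT 01 and KO 02 against spleen WT 02 and WT 04, so that the spleen side held only WT libraries. By chi-square per degree of freedom between their counts, these 2 pairs were also the most alike (7.82 and 7.69). The other pairs of the 6 libraries had 26.0 to 89.9, so the SE and p-values of that comparison rest on unusually alike pairs. Scaling by library size alone moved the median of all genes to log2 -0.23 from 0.04 with TMM, and values below are relative to TMM.

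**Figure D1:**
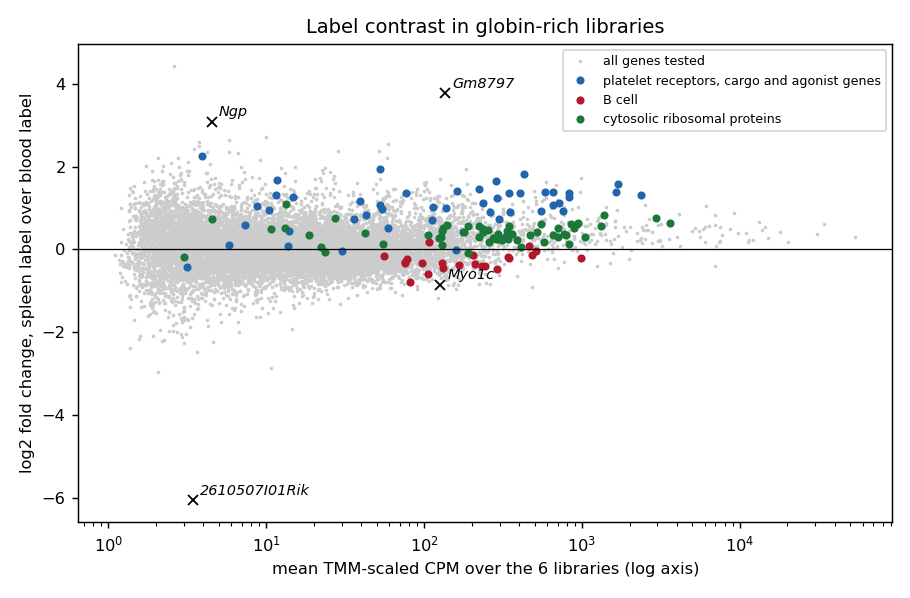
Each point is 1 of the 11847 genes tested, with its mean TMM-scaled CPM over the 6 globin-rich libraries (log axis) and its log2 fold change of the spleen label over the blood label. Most platelet genes (blue) lie above 0, most B cell genes (red) lie just below 0, most ribosomal protein genes (green) lie between 0 and 1, and Gm8797 and 2610507I01Rik lie far from the rest at log2 3.78 and -6.07.

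Platelet genes stood higher in the libraries labelled spleen. The 3 markers named for the comparison were chosen with earlier results of these data known, and their values are given as such. Pf4, the chemokine platelet factor 4 of the alpha granules, stood at 353, 315 and 306 CPM under the blood label and 928, 922 and 693 CPM under the spleen label. Ppbp, the precursor of another platelet chemokine, stood at 905, 898 and 722 CPM under the blood label and 3114, 2915 and 1589.5 CPM under the spleen label. Itga2b, the αIIb chain of the fibrinogen receptor, stood at 934, 961 and 818 CPM under the blood label and 2739, 2749 and 1603 CPM under the spleen label. In each of the 3, all libraries labelled spleen lay above all labelled blood. Without scaling, spleen KO 03 was the highest of its label for Pf4 (684, 729 and 870 CPM) and the lowest for Ppbp and Itga2b. With TMM scaling it was the lowest of its label in all 3. None passed the test over all genes (Pf4 log2 1.38 ± 0.24, edgeR adjusted p = 0.0693; Ppbp log2 1.59 ± 0.35, edgeR adjusted p = 0.0989; Itga2b log2 1.39 ± 0.32, edgeR adjusted p = 0.113). All 3 were called without both KO 03 libraries, at log2 1.46 ± 0.13, edgeR adjusted p = 3.19e-05 for Pf4, at log2 1.73 ± 0.11, edgeR adjusted p = 1.44e-05 for Ppbp and at log2 1.52 ± 0.12, edgeR adjusted p = 1.44e-05 for Itga2b.

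The promoters of these 3 genes are shown because factors of the GATA and ETS families, among them Gata1 and Fli1, drive genes of megakaryocytes, and because Pf4 and Ppbp are neighbours on chromosome 5. The windows run from 250 bases before to 50 after the start of the gene in RefSeq (GRCm38.p6) and lie at chr5:90772185-90772484, plus strand (Pf4), chr5:90768268-90768567, plus strand (Ppbp) and chr11:102469834-102470133, minus strand (Itga2b). Capitals mark every match on either strand to the GATA factor motif, spelled as AGATAA or as TGATAA, and to the ETS factor motif, spelled as AGGAAG or as CGGAAG.
Pf4: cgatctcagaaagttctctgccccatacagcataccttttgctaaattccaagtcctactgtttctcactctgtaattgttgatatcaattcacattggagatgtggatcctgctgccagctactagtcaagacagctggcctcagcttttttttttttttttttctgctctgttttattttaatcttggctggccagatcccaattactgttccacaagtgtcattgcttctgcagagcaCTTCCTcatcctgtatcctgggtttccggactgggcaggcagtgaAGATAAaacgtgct
Ppbp: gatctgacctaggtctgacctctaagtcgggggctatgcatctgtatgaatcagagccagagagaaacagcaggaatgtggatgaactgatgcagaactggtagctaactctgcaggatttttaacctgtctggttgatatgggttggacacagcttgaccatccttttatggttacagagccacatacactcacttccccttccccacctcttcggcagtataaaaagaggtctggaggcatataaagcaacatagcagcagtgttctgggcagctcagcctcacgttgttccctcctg
Itga2b: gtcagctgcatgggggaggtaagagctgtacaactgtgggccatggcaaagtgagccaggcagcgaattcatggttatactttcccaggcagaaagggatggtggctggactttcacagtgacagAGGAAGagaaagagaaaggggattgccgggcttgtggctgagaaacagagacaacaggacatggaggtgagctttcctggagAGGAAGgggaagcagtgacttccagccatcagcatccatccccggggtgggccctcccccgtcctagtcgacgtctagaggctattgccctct
The Pf4 window holds 1 match to each motif, the Itga2b window holds 2 ETS matches, and the Ppbp window holds neither. Among 47 promoters of 42 platelet receptor, cargo and agonist genes, 10 (21.3%) held a GATA match and 26 (55.3%) an ETS match. Among all 32851 promoters of the table the shares were 18.6% and 46.5%. A match is only a run of letters, and binding was not measured.

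Receptors for the vessel wall and for fibrinogen came first by role. Of 18 adhesion receptor genes, 16 passed the filter, 16 of these had a log2 above 0, as had 53.1% of all genes, and 12 had all libraries labelled spleen above all labelled blood, against 9.57% of all genes. Their median log2 was 1.05, where that of all genes tested was 0.04. Gp1bb, a chain of the glycoprotein Ib complex that binds von Willebrand factor, stood at 204, 161 and 200.2 CPM under the blood label and 773, 809 and 426 CPM under the spleen label (log2 1.83 ± 0.29, edgeR adjusted p = 0.0693). Its partner chains Gp1ba, Gp9 and Gp5 stood log2 1.36 ± 0.28, log2 1.37 ± 0.25 and log2 1.46 ± 0.26 higher, and none of the 3 overlapped. Clec1b, the receptor for podoplanin, stood at 207, 192 and 180.5 CPM under the blood label and 505, 579 and 403 CPM under the spleen label. The receptors Itga2, Itga6, Cd36 and Pecam1 overlapped between the labels. No adhesion receptor was called by edgeR over all 6 libraries, where 12 had an unadjusted p under 0.05. DESeq2 called 11, each higher under the spleen label, against 4.33% of all genes. Without both KO 03 libraries edgeR called 13 of 16, each higher under the spleen label, against 8.46% of all genes.

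**Figure D2:**
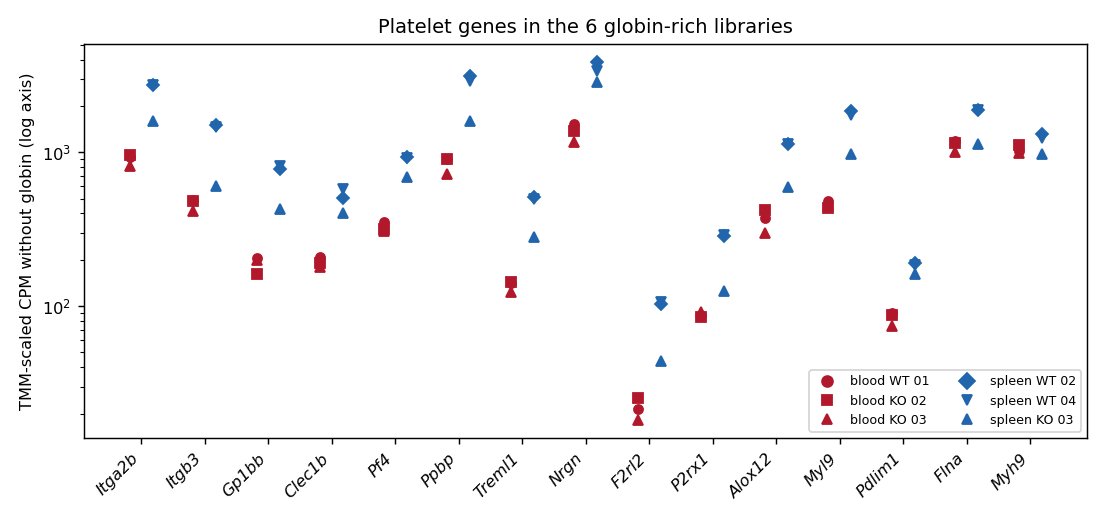
TMM-scaled CPM (log axis) of 15 platelet genes in the 6 globin-rich libraries, with 1 point per library, red for the blood label and blue for the spleen label. For every gene but Myh9 and Flna all blue points lie above all red ones. With this scaling spleen KO 03 (blue upward triangle) is the lowest blue point for each gene. Without scaling it is the highest of its label for Pf4, Nrgn, Clec1b, Pdlim1 and Myh9.

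With TMM scaling granule cargo showed the same order of libraries. Of 22 cargo genes, 19 passed the filter and 16 had a log2 above 0. All libraries labelled spleen lay above all labelled blood for 12, against 9.57% of all genes. The median was 1.12. The cargo genes summed to 5969, 5279 and 4426 CPM under the blood label and 14584, 13904 and 8899 CPM under the spleen label. With that scaling the KO 03 library of each label was the lowest of its side. Spleen KO 03 still exceeded every library labelled blood. Without scaling the sums were 7055, 6385 and 4044 CPM under the blood label and 10754, 10991 and 11181 CPM under the spleen label. Spleen KO 03 was then the highest of all 6 libraries. Treml1, a receptor stored in the granule membrane, stood at 141, 144 and 124 CPM under the blood label and 512, 499 and 279.6 CPM under the spleen label (log2 1.65 ± 0.27, edgeR adjusted p = 0.0693). Nrgn, neurogranin, a transcript abundant in platelets, stood at 1538, 1383 and 1160.3 CPM under the blood label and 3868, 3391 and 2855 CPM under the spleen label. Per 1 kb of the longest annotated transcript, mean levels under the spleen label were 2345 CPM for Ppbp, 2320.4 CPM for Nrgn, 1442 CPM for Pf4 and 688 CPM for Itga2b. Of the 19 cargo genes tested, 7 overlapped between the labels. Sparc, Fn1, Ccl5 and Pdgfb had log2 values of -0.42, -0.01, -0.03 and 0.11. Of the 19, 14 were called, each higher under the spleen label, when both KO 03 libraries were left out, against 8.46% of all genes.

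Receptors for soluble agonists and the enzymes of thromboxane and related lipids also stood higher under the spleen label. Of 16 such genes, 13 passed the filter and 13 had a log2 above 0. All libraries labelled spleen lay above all labelled blood for 11, against 9.57% of all genes, and the median was 1.06. F2rl2, the thrombin co-receptor PAR3 of mouse platelets, stood at 21.5, 25.3 and 18.1 CPM under the blood label and 103, 106 and 43.9 CPM under the spleen label (log2 1.95 ± 0.33, edgeR adjusted p = 0.0693). The ATP-gated channel P2rx1 stood at 86.2, 85.1 and 90.8 CPM under the blood label and 284, 291 and 126 CPM under the spleen label. The 12-lipoxygenase Alox12 stood at 375, 422 and 297 CPM under the blood label and 1132, 1137 and 591 CPM under the spleen label. The thromboxane receptor Tbxa2r overlapped, at 9.72, 14.5 and 15.8 CPM under the blood label and 13.6, 13.6 and 14.8 CPM under the spleen label, although its ligand's synthase Tbxas1 (log2 0.97 ± 0.28) and cyclooxygenase-1, Ptgs1 (log2 1.09 ± 0.26), did not. Leaving out both KO 03 libraries, 8 of the 13 were called, each higher under the spleen label, against 8.46% of all genes.

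Signalling and cytoskeleton genes of platelets were mixed. Of 34 genes tested, 26 had a log2 above 0, and the median was 0.60. Of these 34, 17 had no overlap with the libraries labelled spleen higher, against 9.57% of all genes. Another 2 had no overlap with those labelled blood higher, against 10.5% of all genes. Myl9, the myosin light chain that drives platelet contraction, stood at 483, 433 and 456 CPM under the blood label and 1845, 1743 and 969 CPM under the spleen label (log2 1.73 ± 0.32, edgeR adjusted p = 0.0693). Pdlim1, an actinin-binding protein, stood at 90.0, 87.2 and 74.4 CPM under the blood label and 191, 185 and 161 CPM under the spleen label (log2 1.09 ± 0.17, edgeR adjusted p = 0.0693). The non-muscle myosin heavy chain Myh9 overlapped, at 1025, 1108 and 984 CPM under the blood label and 1305, 1246 and 981 CPM under the spleen label, and its log2 of 0.18 turned to -0.12 with scaling by library size. With that scaling 9 of the 34 genes had no overlap with the libraries labelled spleen higher, and 0 with those labelled blood higher, against 3.79% and 7.7% of all genes. The kinases Syk and Btk and the phospholipase Plcg2 had log2 values of -0.28, -0.17 and -0.26. Of the 34, 17 were called without both KO 03 libraries, each higher under the spleen label, against 8.46% of all genes.

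The transcription factors of megakaryocytes and red cell precursors did not move as 1 group. Of 14 tested, 10 had a log2 above 0, with a median of 0.23. Without overlap, 2 were higher under the spleen label and 2 under the blood label, against 9.57% and 10.5% of all genes. Without both KO 03 libraries the median was 0.70. Of the 14, 6 were then called higher under the spleen label and 1 under the blood label, against 8.46% and 2.24% of all genes. Nfe2, needed for platelet release, stood at 102, 104 and 119.6 CPM under the blood label and 258, 196 and 150.1 CPM under the spleen label (log2 0.89 ± 0.22, edgeR adjusted p = 0.128). Fli1 and Mef2c stood lower under the spleen label without overlap (log2 -0.44 ± 0.16 and log2 -0.58 ± 0.15). In bulk RNA, more cells of a type and more RNA per cell cannot be told apart, which holds for every group described here.

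Most red cell genes overlapped between the labels. The sums of the membrane, heme, maturation and antioxidant lists overlapped as well, each with spleen KO 03 the lowest of all 6 libraries. Of 18 genes of the red cell membrane and its skeleton, 13 had a log2 above 0, none had separate libraries, and the median was 0.22, or -0.17 with scaling by library size. Slc4a1, the anion exchanger band 3, stood at 4023, 4038 and 8779 CPM under the blood label and 9239, 8127 and 1770.5 CPM under the spleen label. Alas2, the first enzyme of heme synthesis in red cells, stood at 44169.9, 43117 and 57268 CPM under the blood label and 78223, 68382 and 32269 CPM under the spleen label. Blood KO 03 was the highest of its label for both genes and spleen KO 03 the lowest of all 6 libraries. For heme synthesis 11 of 12 genes had a log2 above 0 with a median of 0.31, for reticulocyte maturation 18 of 21 with 0.37, and for antioxidant enzymes of red cells 16 of 18 with 0.51. In these 3 lists 1, 2 and 4 genes had all libraries labelled spleen above all labelled blood, against 9.57% of all genes, and 0 had the reverse. Without both KO 03 libraries the medians of the membrane, heme, maturation and antioxidant lists were 0.96, 0.83, 0.85 and 1.02. Of their genes 13, 8, 14 and 12 were called, each higher under the spleen label, against 8.46% of all genes. In that smaller comparison Slc4a1 stood at log2 1.09 ± 0.11, edgeR adjusted p = 5.77e-05 and the peroxiredoxin Prdx2 at log2 1.41 ± 0.13, edgeR adjusted p = 4.65e-05.

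**Figure D3:**
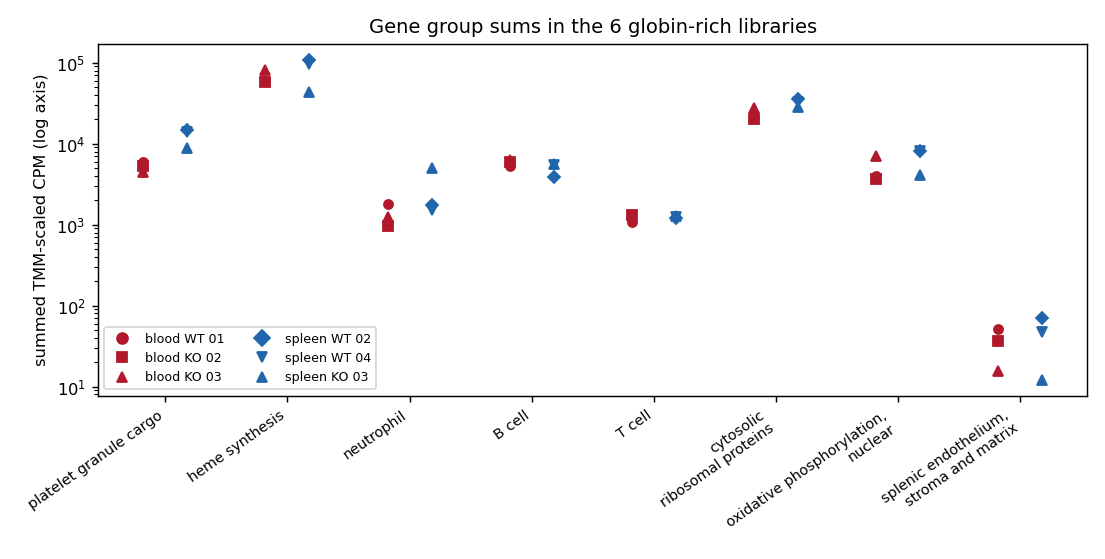
Summed TMM-scaled CPM (log axis) of 8 gene lists in the 6 globin-rich libraries, with 1 point per library, red for the blood label and blue for the spleen label. Platelet cargo separates the labels, heme synthesis places spleen KO 03 (blue upward triangle) below and oxidative phosphorylation places it among the libraries labelled blood, neutrophil genes place it far above the other 5, and B and T cell sums overlap.

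Neutrophil genes were set apart by 1 library. All 20 tested of 26 had a log2 above 0 with a median of 1.01, but their summed level was 1819, 952 and 1261 CPM under the blood label and 1773, 1507 and 5046 CPM under the spleen label, and spleen KO 03 alone stood above the other 5 libraries. The alarmin S100a8 stood at 261, 123 and 159.7 CPM under the blood label and 243, 195 and 856 CPM under the spleen label, and the other 2 libraries labelled spleen lay within the range of those labelled blood. Without both KO 03 libraries the median was 0.26 and 1 of 20 neutrophil genes was called, against 8.46% of all genes higher under the spleen label. That gene was Ngp, a protein of the secondary granules made in immature neutrophils, at 0.435, 1.33 and 1.03 CPM under the blood label and 8.56, 8.96 and 6.69 CPM under the spleen label (log2 3.09 ± 0.55, edgeR adjusted p = 0.0693 over all 6 libraries). Ltf, lactoferrin of the same granules, stood at 2.61, 0.443 and 0.411 CPM under the blood label and 7.08, 5.87 and 2.76 CPM under the spleen label. Both were low in all 6 libraries and separated the labels. Of the 20 neutrophil genes tested, 3 had all libraries labelled spleen above all labelled blood, against 9.57% of all genes.

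B cell genes leaned toward the blood label, while T cell genes were divided. Of 22 B cell genes, 20 had a log2 below 0, as had 46.9% of all genes, 11 had all libraries labelled blood above all labelled spleen, against 10.5% of all genes, and the median was -0.32. Bach2, a repressor that holds back plasma cell fate, stood at 109.7, 113 and 88.8 CPM under the blood label and 57.5, 64.0 and 58.3 CPM under the spleen label (log2 -0.79 ± 0.16, edgeR adjusted p = 0.094). Pax5, which maintains B cell identity, stood at 316, 340.0 and 354 CPM under the blood label and 204, 269.8 and 255 CPM under the spleen label, and the summed B cell level was 5256, 5899.8 and 6299 CPM under the blood label and 3923, 5418 and 5661 CPM under the spleen label. That sum overlapped between the labels, and Igkc and Ly6d had log2 values above 0. Scaled by library size, 4 of the 22 B cell genes had no overlap, each higher under the blood label, where 7.7% of all genes did. Without both KO 03 libraries 1 was called, higher under the blood label, against 2.24% of all genes. T cell genes divided 11 above and 13 below 0 (median -0.08), and their sum overlapped between the labels. Without overlap, 3 of 24 were higher under the spleen label and 1 under the blood label, against 9.57% and 10.5% of all genes. Natural killer and cytotoxic genes divided 5 above and 12 below 0 (median -0.29), and their sum overlapped. Of 17, 4 were higher under the blood label without overlap and 0 under the spleen label, against 10.5% and 9.57% of all genes. Prf1, perforin, stood at 28.9, 19.7 and 27.3 CPM under the blood label and 17.4, 19.5 and 12.8 CPM under the spleen label.

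Ribosomal protein genes stood slightly higher under the spleen label, while most respiration genes overlapped. Of 58 cytosolic ribosomal protein genes, 55 had a log2 above 0, with a median of 0.38. No overlap, with the libraries labelled spleen higher, was found for 32, against 9.57% of all genes. Scaled by library size, 11 had no overlap, each higher under the spleen label, against 3.79% of all genes. Of 55 nuclear genes of oxidative phosphorylation, 48 had a log2 above 0, 5 had no overlap, a share near the 9.57% of all genes, and the median was 0.39. The summed level of the latter was 3947, 3659 and 7078 CPM under the blood label and 8112, 8057 and 4161 CPM under the spleen label, so blood KO 03 lay near the WT libraries labelled spleen and spleen KO 03 near the other libraries labelled blood. Without both KO 03 libraries 29 of 58 ribosomal protein genes and 25 of 55 oxidative phosphorylation genes were called. Each was higher under the spleen label, against 8.46% of all genes. Hist1h1c, a linker histone that packs nucleosomes together, stood at 274, 306 and 294 CPM under the blood label and 1064, 978 and 646 CPM under the spleen label (log2 1.62 ± 0.27, edgeR adjusted p = 0.0693). Hist1h4i and Hist1h2bc also did not overlap (log2 1.14 ± 0.19 and log2 0.97 ± 0.23), and 6 of the 8 histone genes tested had a log2 above 0. Of the 8, 4 had all libraries labelled spleen above all labelled blood, against 9.57% of all genes.

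Genes that bind or work with nuclear myosin 1 were looked at as 1 list. Of 14 chromatin partners, 11 had a log2 below 0, 5 had all libraries labelled blood higher, against 10.5% of all genes, 1 had all labelled spleen higher, against 9.57%, and the median was -0.25. The acetyltransferase Ep300 stood at 141, 128 and 98.9 CPM under the blood label and 71.7, 68.9 and 84.1 CPM under the spleen label (log2 -0.71 ± 0.19, edgeR adjusted p = 0.141). The polymerase subunit Polr2a stood at 208, 215 and 193 CPM under the blood label and 145, 163 and 177 CPM under the spleen label. With scaling by library size none of the 14 had separate libraries, where 3.79% and 7.7% of all genes did. Among actins, Actg1 stood at 643, 561 and 646 CPM under the blood label and 1393, 1369.9 and 1007 CPM under the spleen label, higher under the spleen label without overlap.

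Over all genes, 10 of at least 5 CPM were named by the smallest p in each direction, leaving out predicted gene models such as Gm8797, pseudogenes, receptor and immunoglobulin segments and olfactory receptors. None of these 20 passed the test over all genes. Higher under the spleen label was Serpinb6a, an inhibitor of serine proteases, at 38.7, 30.0 and 36.6 CPM under the blood label and 103, 98.0 and 87.4 CPM under the spleen label (log2 1.45 ± 0.17, edgeR adjusted p = 0.0693). F11r, the junctional adhesion molecule A found on platelets, stood at 9.72, 12.1 and 10.1 CPM under the blood label and 40.4, 35.8 and 25.3 CPM under the spleen label. Ache, acetylcholinesterase of the red cell surface, stood at 8.42, 10.9 and 8.84 CPM under the blood label and 42.8, 38.3 and 26.3 CPM under the spleen label. The other 7 were Inafm2, Ptms, S100a1, Lsm12, Slc39a4, Chst12 and Glipr2, with log2 values between 0.95 (Glipr2) and 1.41 (Slc39a4).

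Higher under the blood label was Ikzf3, the lymphocyte transcription factor Aiolos, at 174, 192 and 137 CPM under the blood label and 75.5, 81.9 and 67.5 CPM under the spleen label (log2 -1.17 ± 0.19, edgeR adjusted p = 0.0693). Rictor, the defining subunit of mTOR complex 2, stood at 53.5, 51.3 and 49.1 CPM under the blood label and 19.2, 28.4 and 23.6 CPM under the spleen label. Rasgrp1, an activator of Ras in T cells, stood at 98.1, 93.3 and 94.96 CPM under the blood label and 47.8, 58.1 and 53.4 CPM under the spleen label. In none of these did the labels overlap. The other 7 were Cacna1e, Slc9a7, Nrip1, Usp34, Lnpep, Med13 and Zfp317, with log2 values between -1.76 (Zfp317) and -0.90 (Med13).

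Transcript length moved with the direction. The median length of the longest annotated transcript was 3366 nt over all genes tested, 2368 nt for the 1134 genes with all libraries labelled spleen higher and 5027 nt for the 1245 with all labelled blood higher. Among genes longer than the median, 5.76% were higher under the spleen label and 16.8% under the blood label, where among the shorter genes the shares were 13.4% and 4.23%. Ribosomal protein genes were short, with a median of 1108 nt, and 2 of the 58 were longer than the median gene. The chromatin partners of nuclear myosin 1 were long, with 11 of 14 above that median. Among platelet genes longer than that median, 6 of 10 adhesion receptors, 4 of 8 cargo genes, 3 of 3 agonist genes and 7 of 21 signalling genes had no overlap with the libraries labelled spleen higher, and 2 of the 21 had none with those labelled blood higher. The part of length in the differences between the labels was not tested.

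The same label contrast was then set beside that of the 6 globin-poor libraries (blood WT 03, WT 04 and KO 04 against spleen WT 01, KO 01 and KO 04), with which it shares no library. Those libraries carried splenic markers under both labels. The medians there were 0.01 for adhesion receptors, 0.26 for cargo, 0.15 for agonist genes and 0.27 for signalling genes. Red cell lists had medians of -2.06 (membrane) and -1.90 (heme), and B cell genes one of 0.32. Within the globin-poor libraries edgeR called 15 of 16418 genes (0.0914%). The difference between the contrasts, tested as an interaction over 12 libraries, was above 0 for 52.5% of 17560 genes and was called for 58 of them, 48 higher in the globin-rich libraries (0.273%) and 10 lower (0.0569%). Of the platelet lists, 2 of 18 adhesion receptors (Gp9, log2 2.17 ± 0.34, edgeR adjusted p = 0.0257, and Clec1b, log2 1.32 ± 0.26, edgeR adjusted p = 0.0489) and 1 of 34 signalling genes (Pdlim1, log2 1.42 ± 0.28, edgeR adjusted p = 0.0489) were among the 48. Pf4, Ppbp and Itga2b did not pass (log2 1.46 ± 0.37, edgeR adjusted p = 0.0767; log2 1.42 ± 0.42, edgeR adjusted p = 0.114; log2 1.49 ± 0.37, edgeR adjusted p = 0.076). The number called ran from 0 to 1098 as single libraries were left out.

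**Figure D4:**
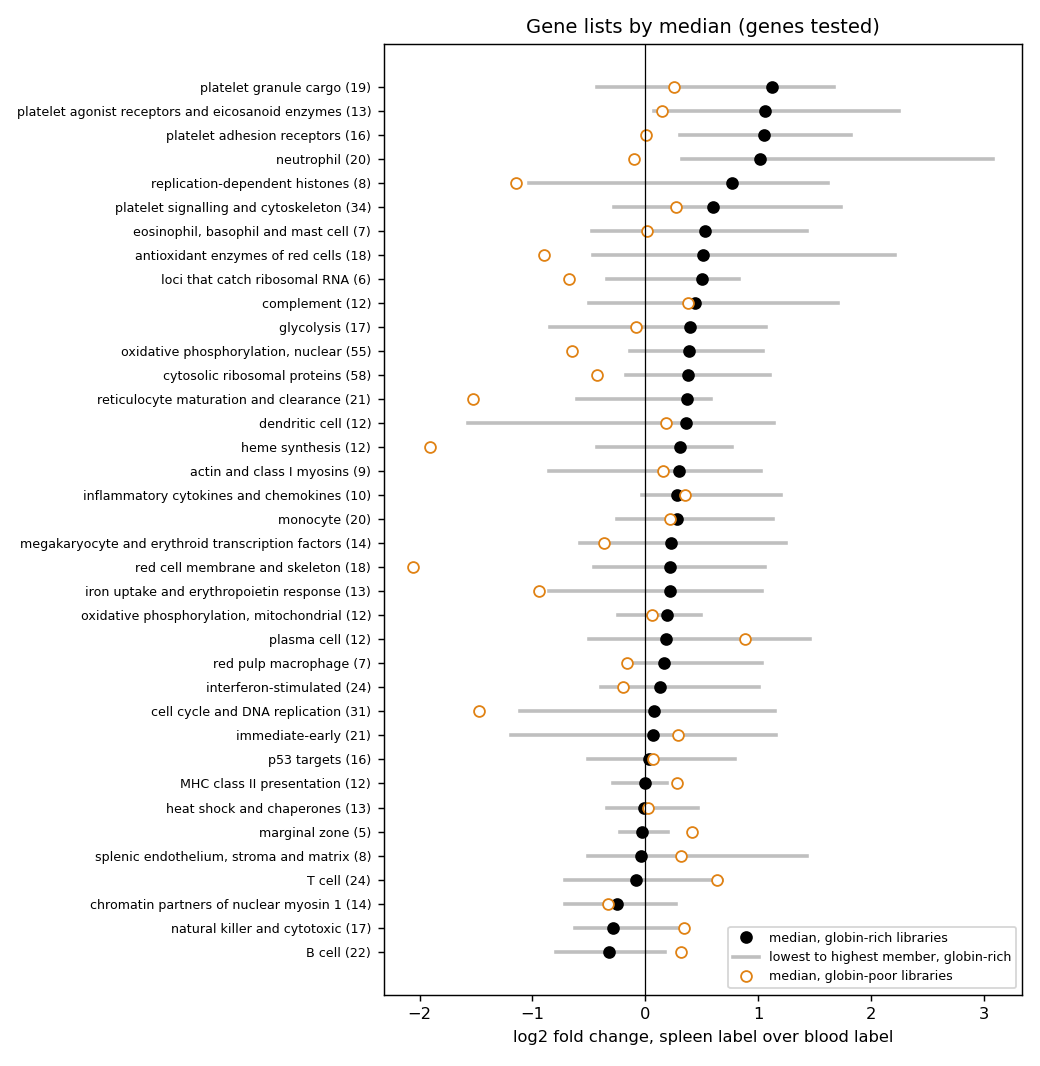
Median log2 fold change of the spleen label over the blood label for each gene list with at least 5 genes tested (number in brackets), in the globin-rich libraries (black points, with the range over members as a grey line) and in the globin-poor libraries (open orange points). Platelet cargo, agonist and adhesion genes have the highest medians among globin-rich libraries, at 1.12, 1.06 and 1.05, beside 0.26, 0.15 and 0.01 among globin-poor ones, where red cell lists lie far below 0.

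Some of the genes named above for the smallest p differed between the kinds of library. Ache had a log2 of 1.92 in globin-rich and -1.87 in globin-poor libraries (difference log2 3.76 ± 0.48, edgeR adjusted p = 0.0104). Hist1h1c had 1.62 and -0.72 (difference log2 2.30 ± 0.32, edgeR adjusted p = 0.0104). Ikzf3 went the other way, with -1.17 and 0.57 (difference log2 -1.76 ± 0.31, edgeR adjusted p = 0.0364). Of 11461 genes tested in both kinds, 4938 had the same direction and 6523 the opposite direction.

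A few genes followed the label in both kinds of library. In a fit of all 12 libraries with a term for kind, added after seeing the data, edgeR called 4 of 17560 genes for the label (0.0228%), and they are named because they are so few. Gm8797 (chromosome 3, 5750806 to 5751295 of GRCm38) held 18.9, 21.6 and 19.9 CPM under the blood label and 262, 194 and 205 CPM under the spleen label in globin-rich libraries, without scaling. In globin-poor libraries it held 1.47, 1.96 and 1.32 CPM under the blood label against 52.1, 52.7 and 43.5 CPM. The label term was log2 4.23 ± 0.24, edgeR adjusted p = 2.30e-07. Over 384 of its 490 nt, Gm8797 is 98.2% identical to Ubb, a polyubiquitin gene with mean levels of 6812 CPM under the blood label and 7224 CPM under the spleen label, so reads may be shared between them and the level is uncertain.

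The noncoding transcript 2610507I01Rik (chromosome 11, 59199836 to 59202385) went the other way. It had 127 counts under the blood label and 1 under the spleen label in globin-rich libraries, a ratio of 107 (95% interval 18.9 to 4274, counting error only), and 279 against 17 counts in globin-poor ones, a ratio of 18.6 (11.4 to 32.5). Its label term over 12 libraries was log2 -4.79 ± 0.54, edgeR adjusted p = 0.00159. Ide, the insulin-degrading enzyme (chromosome 19, 37268743 to 37337852), held 29.5, 35.9 and 25.2 CPM against 10.9, 6.84 and 18.1 CPM in globin-rich and 86.1, 97.1 and 90.8 CPM against 39.4, 54.3 and 57.6 CPM in globin-poor libraries (log2 -1.08 ± 0.15, edgeR adjusted p = 0.0202). Xaf1, an interferon-induced gene (chromosome 11, 72301629 to 72313733), held 23.2, 24.5 and 17.1 CPM against 36.8, 30.3 and 37.8 CPM and 31.3, 33.5 and 25.6 CPM against 71.2, 60.0 and 60.8 CPM (log2 0.94 ± 0.14, edgeR adjusted p = 0.0229). In each of the 4 genes no library labelled blood overlapped those labelled spleen within a kind, and each label held libraries of both genotypes. Xaf1 lies 3.35 Mb and 2610507I01Rik 16.5 Mb from Myo1c on chromosome 11. Of 408 genes tested within 20 Mb of Myo1c, 20.6% had separate labels in globin-rich libraries, against 20.1% of all genes.

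**Figure D5:**
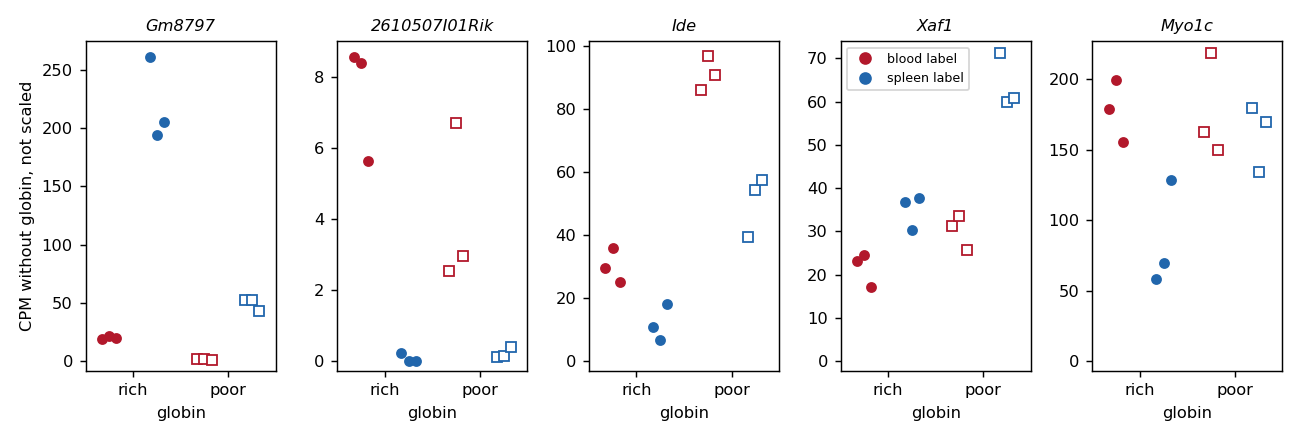
CPM without globin and without scaling of 4 genes that differed between the labels over 12 libraries, and of Myo1c, with 1 point per library (red blood label, blue spleen label; filled circles globin-rich, open squares globin-poor). The labels are separate within both kinds for the first 4 genes, while for Myo1c they are separate in globin-rich libraries and overlap in globin-poor ones.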

How the data were processed

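The authors deposited 1 table of raw counts for each library, with 46603 Ensembl gene identifiers. The submitters' processing notes list HTSeq, HISAT2 2.0.4, Trimmomatic 0.36, SAMtools 0.1.19 and FastQC, and the builds GRCm38 and mm10. The strand setting and annotation release were not given in the sources used here. Symbols and positions came from GENCODE vM21 (GRCm38), which held 46091 of the identifiers.

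The 4 adult globin genes were removed before library sizes were taken. Genes were kept with filterByExpr by label, scaled with TMM and tested with edgeR 4.0.16's robust quasi-likelihood F test in R 4.3.3, with Benjamini-Hochberg adjustment and a threshold of 0.05. A difference between library kinds was the interaction of kind and label over all 12 libraries. SE is the log2 fold change divided by the square root of F. Gene lists were described by counts and medians, without a test. The libraries, markers and lists were chosen with earlier results of these data known. Named genes were the markers, up to 10 genes a direction, the leading member of each list and the 3 highest platelet members, beside single genes chosen after their values were seen. The fits were tested on simulated data. Among the 6 globin-rich libraries the smallest chi-square per degree of freedom between 2 libraries was 7.69, so no pair differed by counting error alone. This cannot tell 2 preparations from 1 mouse apart from libraries of separate mice. Pairs with globin-poor libraries were not compared. Alternatives used other scalings, filters, DESeq2 1.42.0, limma 3.58.1 (voom), a genotype term, a replicate block, a fold minimum, all 12 libraries and left-out libraries. Promoter sequences came from RefSeq, and Gm8797 was compared with transcripts by BLAST 2.17.0. Python 3.11.15, pandas 2.3.3 and matplotlib 3.10.9 made tables and plots.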

Additional observations from a re-analysis of the deposited data

Results flagged for a closer look

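The label contrast differed between globin-rich and globin-poor libraries for 10 of the genes named by smallest p or leading a list (edgeR interaction test). Genes named above in other ways, such as Gp9 and Clec1b, are not among these 10. Values are the log2 difference of the contrasts, globin-rich minus globin-poor, ± SE. The contrast was higher in globin-rich libraries for Ache (3.76 ± 0.48, adjusted p = 0.0104), Hist1h1c (2.30 ± 0.32, adjusted p = 0.0104), Serpinb6a (1.61 ± 0.23, adjusted p = 0.0104), Lsm12 (1.55 ± 0.23, adjusted p = 0.0153), Dnajb4 (1.49 ± 0.27, adjusted p = 0.0372) and Pdlim1 (1.42 ± 0.28, adjusted p = 0.0489). It was lower there for Slc9a7 (-2.22 ± 0.43, adjusted p = 0.0473), Cacna1e (-1.98 ± 0.32, adjusted p = 0.0257), Ikzf3 (-1.76 ± 0.31, adjusted p = 0.0364) and Rasgrp1 (-1.45 ± 0.25, adjusted p = 0.0364). Dnajb4, a co-chaperone, overlapped between the labels in globin-rich libraries, at 19.4, 24.2 and 30.6 CPM under the blood label and 38.4, 30.0 and 30.4 CPM under the spleen label. No group here had the 4 libraries needed to look for a single distant value.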

How the results depend on the processing

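Over the 6 globin-rich libraries the test called 1 gene higher under the spleen label and 0 under the blood label. The counts were 5 and 1 with library size in place of TMM, 157 and 40 without a filter, 8 and 1 with a filter of 5 CPM, 513 and 328 with DESeq2, 42 and 3 with limma-voom and 181 and 24 with 1 fit of all 12 libraries. Chosen after seeing the data, a term for the KO 03 libraries gave 173 and 23, and leaving out both gave 1056 and 280. Leaving out single libraries gave 0 to 316 and 0 to 64, and both high values came without spleen KO 03. DESeq2 size factors, TMM with globin or without mitochondrial genes, non-robust dispersions, a 1.5-fold minimum and a genotype term gave 1 and 0.

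The 58 genes called for the difference between kinds became 89 with DESeq2 size factors, 1 with library size, 611 without a filter, 102 with the 5 CPM filter, 1413 with DESeq2, 35 with limma-voom, 0 with a 1.5-fold minimum (1792 genes at an unadjusted p under 0.05), 28 with a genotype term and 1087 without both KO 03 libraries. Single libraries left out gave 0 to 1098 (0 without blood WT 01, blood WT 03, spleen WT 04 or spleen KO 04, 1098 without spleen KO 01). The 4 genes called for the label over 12 libraries became 237 without a filter, 333 with DESeq2, 153 with limma-voom, 2 with a 1.5-fold minimum and 2 to 10 with single libraries left out. The cause of these shifts was not tested.

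With the replicate number as a block, edgeR called 0 genes for the label in globin-rich libraries (880 at an unadjusted p under 0.05) and 2 over 12 libraries. In the globin-rich libraries the numbers were not taken as pairing, since only 02 and 03 occur under both labels and 02 joins a KO to a WT library. The residual correlation was 0.18 for 02 and 0.48 for 03, beside 0.47 between blood WT 01 and spleen WT 02. Over 12 libraries, WT 01, WT 04, KO 03 and KO 04 each occur under both labels. Whether these mark the same mice is not stated, and the main fits over 12 libraries do not account for such pairing.

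Of the named genes, only Myh9 changed sign, to -0.12 with library size in place of TMM. The medians of adhesion, cargo and agonist genes ran from 0.88 to 1.22, 0.95 to 1.41 and 0.94 to 1.26 with single libraries left out, and were 0.72, 0.70 and 0.73 with library size and 0.89, 0.86 and 0.93 with a genotype term. With 4.09 to 5.83 M counts without globin a library, genes near 1 CPM rest on a few counts.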
